A study of Mus musculus with 6 samples.

Results

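The genes described here encode the machinery that copies the genome in S phase. They are 56 genes, chosen by symbol from among the 49997 rows of the deposited gene count table, that act in origin licensing, in the replicative helicase, in the polymerases, at the fork and in chromatin assembly behind it. They were measured in cells labelled as long-term haematopoietic stem cells (LT-HSCs), a cell type that sustains blood formation through life and is known to divide rarely. Flow cytometry divided these cells by their content of Asrij, the protein product of Ociad1, into Asrij low and Asrij high. The RNA of each population was sequenced in bulk, with 3 libraries per group. Both groups came from bone marrow of C57BL/6J mice aged 4 months and the genotype label of every library reads C57BL/6J, with no treatment named. The name of the deposited table also carries the term ArjKI, which the labels do not explain, so whether the cells carry an altered Asrij allele is not stated. The labels state neither how Asrij was read in the sort nor how many mice stand behind a library, and the spread behind each p-value is that between libraries, which may be technical. The comparison asks how transcript levels differ between cells labelled as LT-HSCs with low and with high Asrij.

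Before S phase, the origin recognition complex, Cdc6 and Cdt1 load the MCM helicase onto DNA in an inactive form, a step called licensing that geminin blocks later in the cycle. The kinase Cdc7 with its activator Dbf4 then triggers the binding of Cdc45 and the GINS complex, which turns the MCM ring into a moving helicase. Polymerase alpha with primase starts each strand, polymerases epsilon and delta extend it on the sliding clamp PCNA, and nucleases and a ligase join the lagging strand fragments. Many of these genes are known targets of E2F transcription factors.

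Library totals ran from 24707012 to 46240743 counts in Asrij low and from 62732782 to 72855125 in Asrij high. All 56 genes had counts in every library, the lowest being 28 counts, and all 56 passed the filter on low counts. Levels are in CPM (counts scaled by library total and TMM factors), listed in the order of replicates 1 to 3. Fold changes are Asrij high over Asrij low on the log2 scale with their standard error (SE), n = 3 libraries per group, and adjusted p-values come from edgeR's quasi-likelihood test with Benjamini-Hochberg adjustment over all 21445 genes tested. In a bulk sample, fewer cells that carry a transcript and less of it per cell cannot be told apart.

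The replication genes were higher in Asrij high almost throughout. Of the 56 genes, 53 rose (adjusted p under 0.05) and 0 fell, where 21.7% of all tested genes were called higher and 17.7% lower. Of the 53, 50 rose at least 2-fold, which 13.9% of all tested genes did. The median log2 fold change of the 56 genes was 1.95, beside -0.02 over all genes tested. The 3 genes that did not pass the threshold were Orc3, Orc4 and Rfc2. For 55 of the 56 genes the lowest Asrij high library exceeded the highest Asrij low library, which held for 30.2% of tested genes. The reverse held for 24.8% of tested genes and for 0 of the 56. The 56 genes took 0.313%, 0.377% and 0.293% of all counts in Asrij low and 1.03%, 0.838% and 1.08% in Asrij high. These shares use library totals alone, without TMM factors.

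**Figure D1:**
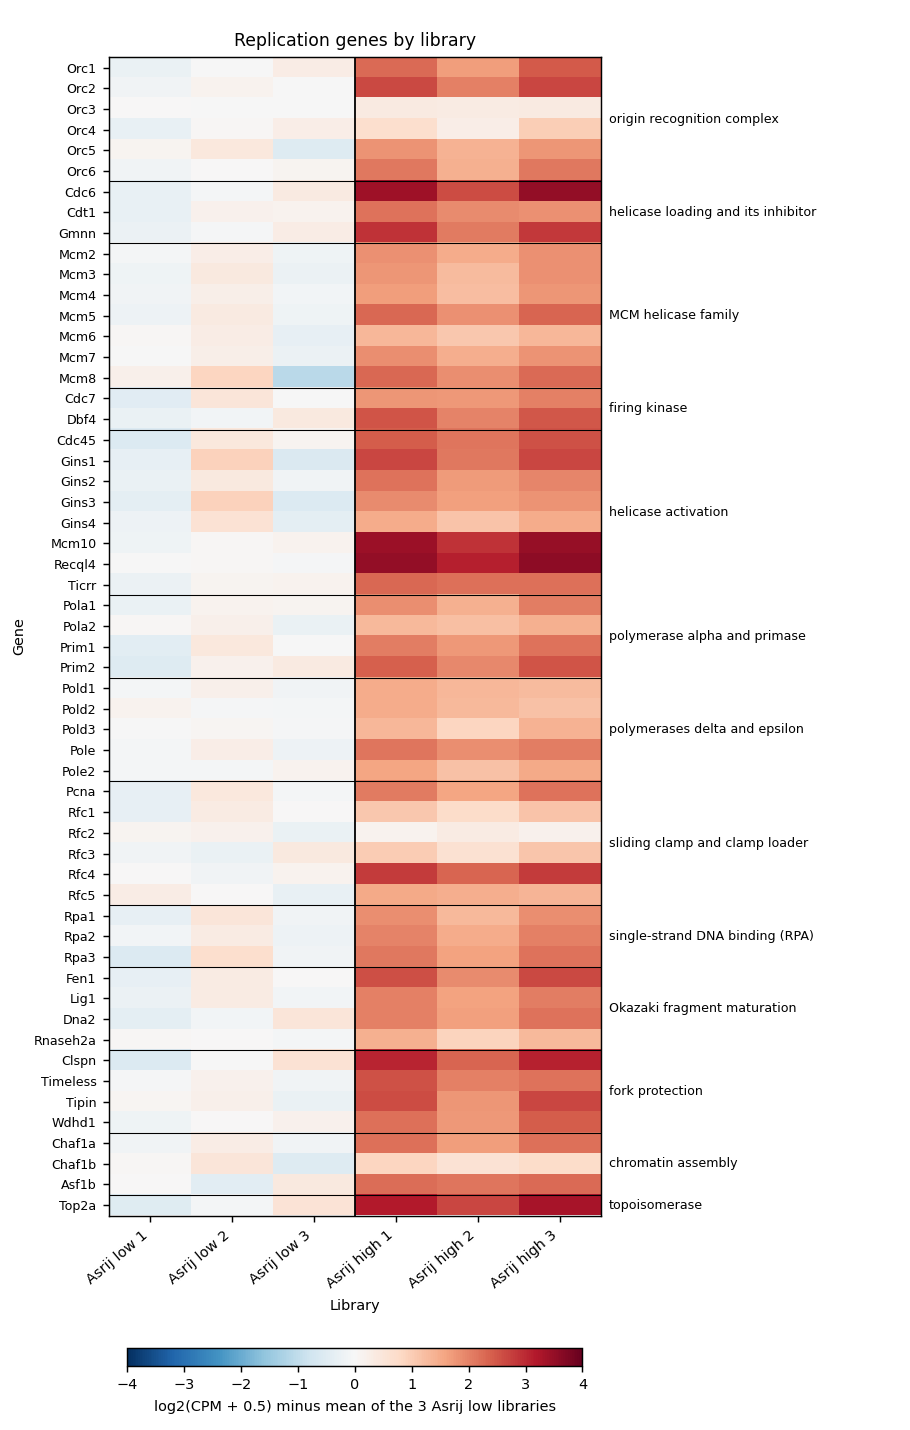
Level of each of the 56 replication genes (rows, grouped by role) in each library (columns), as log2(CPM + 0.5) minus the mean of the 3 Asrij low libraries. The Asrij high columns are red for nearly all genes, palest for Orc3, Orc4 and Rfc2, and Asrij high replicate 2 is paler than replicates 1 and 3 for most genes.

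The size of the difference was not the same in every library. Asrij high replicate 2 was the lowest of the Asrij high libraries for 51 of the 56 genes. The median of the genes relative to the Asrij low mean was 2.07, 1.64 and 2.05 in Asrij high replicates 1 to 3, on the scale of log2(CPM + 0.5), against -0.00142, 0.07 and 0.01 for all tested genes. Within Asrij low, replicate 2 was the highest library for 35 of the 56 genes, and its median stood 0.19 above the group mean.

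Markers of the labelled cell type and of other blood and marrow cells also differed between the groups. The counts of markers below stand beside 21.7% of all tested genes called higher and 17.7% called lower. All 11 markers of LT-HSCs had counts in each library, but 10 of the 11 were lower in Asrij high, with a summed level of 1301 to 1512 CPM in Asrij low and 431 to 706 CPM in Asrij high. Kit made up a large part of these sums, at 729, 754 and 563 CPM in Asrij low and 373, 456 and 305 CPM in Asrij high. The highest of the Asrij high sums was that of replicate 2, the library with the lowest replication gene levels for most members, and so was the highest sum of granulocyte-monocyte progenitor markers (3285 CPM, against 2584 and 1263 CPM in replicates 1 and 3). Of 5 multipotent progenitor markers, 3 were lower (292.7 to 382 CPM against 41.4 to 152 CPM). All 6 markers of granulocyte-monocyte progenitors were higher in Asrij high, summing to 65.4 to 243 CPM in Asrij low and 1263 to 3285 CPM in Asrij high. Among 11 erythroid markers, 6 were higher, those of early erythroid cells such as Klf1 and Car1, and 4 were lower, the globin genes and Alas2, with sums of 8676 to 58372 CPM in Asrij low and 4851 to 7996 CPM in Asrij high. B lineage and plasma cell markers were lower for 6 of 7 (71.0 to 209 CPM against 16.3 to 24.2 CPM) and stromal markers for 6 of 6 (189 to 651 CPM against 15.6 to 49.3 CPM). The marker with no count in some library was Col3a1. The part of these markers in the difference of the replication genes was not tested.

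**Figure D2:**
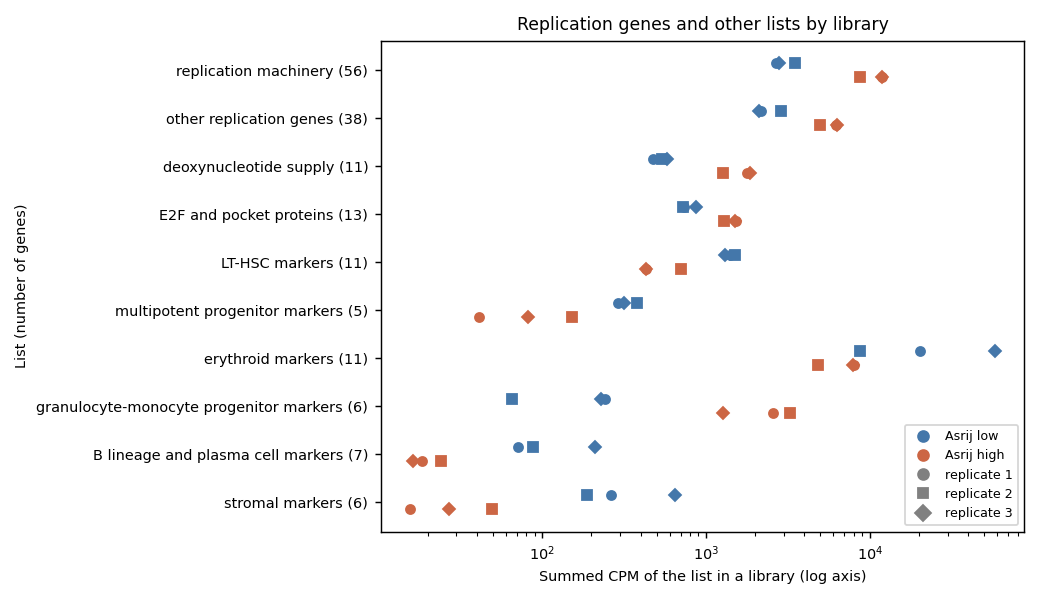
Summed CPM of the 56 replication genes, of 3 related gene lists and of 6 marker lists (rows) in each library (points, log axis). The replication genes sum to 2679 to 3507 CPM in Asrij low and 8716 to 11892 CPM in Asrij high, and the LT-HSC and granulocyte-monocyte progenitor markers stand apart between the groups in opposite directions.

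The promoters of the genes were searched for the E2F-type motif. Many replication genes are known E2F targets, so a high share can come with the choice of genes. It does not describe the difference between the groups. RefSeq windows from 250 bases before to 50 bases after the annotated start (GRCm38.p6) were held for 46 of the 56 genes, 7 of which had more than 1 window. The words TTCCCGC or TTGGCGC or TTCGCGC or TTGCCGC were searched on both strands, and matches may overlap. At least 1 was present in 28 of 46 genes (60.9%), against 16.6% of the 14110 tested genes with a window and 10.9% of all 27025 genes in the RefSeq promoter table. In the 250 upstream bases alone the share was 18 of 46 genes (39.1%), against 13.7% of the tested genes. The median GC content of the windows was 61.8% for the replication genes and 58.7% for the tested genes. CCAAT, the core of the NF-Y motif, was found on either strand in 28 of 46 genes (60.9%, against 41.8% of tested genes) and TTTGAA, a core of the cell cycle homology region, in 9 of 46 (19.6%, against 16%). A match describes the letters only. The 28 genes with an E2F-type match had a median log2 fold change of 1.84 and the 18 without one had 1.96.

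The following stretches upstream of the RefSeq start show where E2F-type matches lie in 6 of the genes that rose, printed 5′ to 3′ on the gene's strand with the matches in capitals. They are the 6 genes with the largest log2 fold change among those whose match lies upstream of the start in a stretch of at least 60 bases free of annotated exons (GENCODE M21).
Cdc6 (chr11:98907982-98908150, plus strand, 169 bases): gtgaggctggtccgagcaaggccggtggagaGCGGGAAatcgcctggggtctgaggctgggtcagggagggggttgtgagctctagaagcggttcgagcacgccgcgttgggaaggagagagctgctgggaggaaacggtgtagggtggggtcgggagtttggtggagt
Mcm5 (chr8:75109259-75109508, plus strand, 250 bases): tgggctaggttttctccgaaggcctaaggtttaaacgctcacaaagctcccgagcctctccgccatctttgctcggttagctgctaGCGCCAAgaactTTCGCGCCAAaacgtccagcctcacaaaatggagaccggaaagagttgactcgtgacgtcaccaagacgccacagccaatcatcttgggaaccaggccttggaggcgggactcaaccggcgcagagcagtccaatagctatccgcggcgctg
Chaf1a (chr17:56040166-56040415, plus strand, 250 bases): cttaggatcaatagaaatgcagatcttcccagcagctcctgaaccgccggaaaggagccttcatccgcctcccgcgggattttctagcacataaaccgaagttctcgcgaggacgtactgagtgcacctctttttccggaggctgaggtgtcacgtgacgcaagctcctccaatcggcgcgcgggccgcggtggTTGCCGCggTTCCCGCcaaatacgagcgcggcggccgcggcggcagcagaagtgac
Rpa2 (chr4:132768110-132768331, plus strand, 222 bases): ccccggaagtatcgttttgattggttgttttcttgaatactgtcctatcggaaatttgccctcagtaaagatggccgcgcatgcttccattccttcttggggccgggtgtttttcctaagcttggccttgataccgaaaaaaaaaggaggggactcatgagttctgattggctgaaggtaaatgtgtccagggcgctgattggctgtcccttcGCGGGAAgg
Cdc7 (chr5:106964426-106964560, plus strand, 135 bases): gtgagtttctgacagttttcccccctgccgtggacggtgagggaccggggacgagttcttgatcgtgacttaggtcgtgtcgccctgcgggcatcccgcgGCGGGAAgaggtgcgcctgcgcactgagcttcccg
Pola1 (chrX:93632156-93632405, minus strand, 250 bases): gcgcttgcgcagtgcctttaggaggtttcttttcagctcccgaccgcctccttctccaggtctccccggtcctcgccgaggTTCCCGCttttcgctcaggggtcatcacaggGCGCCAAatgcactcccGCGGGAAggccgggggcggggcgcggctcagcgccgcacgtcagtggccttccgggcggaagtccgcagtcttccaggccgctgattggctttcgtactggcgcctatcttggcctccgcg
The printed stretches of Mcm5 and Pola1 held 3 matches each, that of Chaf1a held 2, and those of Cdc6, Rpa2 and Cdc7 held 1. In Mcm5 the matches began 164, 152 and 149 bases upstream of the start and the last pair shared bases, so that they read as 1 run of capitals. Those of Chaf1a began 56 and 47 bases upstream, and those of Pola1 169, 138 and 121 bases upstream. The single match began 138 bases upstream in Cdc6, 37 in Rpa2 and 35 in Cdc7. The stretches of Cdc6 and Cdc7 follow an exon of a longer GENCODE transcript of the same gene. Of the 4 genes with a log2 fold change of at least 3, Mcm10 and Top2a had no E2F-type match in the window, Cdc6 had 1, and no window was held for Recql4.

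The origin recognition complex, which marks the sites where replication can start, did not move as 1 unit. Orc2, a core subunit (chromosome 1, 58462771 to 58505109), was at 28.5, 34.5 and 31.0 CPM in Asrij low and 197, 129 and 200.2 CPM in Asrij high (log2 fold change 2.48 ± 0.21, adjusted p = 1.98e-04). Orc1, the subunit whose level is known to vary most over the cell cycle, was at 5.72, 6.89 and 8.73 CPM against 35.7, 23.5 and 40.8 CPM (2.23 ± 0.28, adjusted p = 6.23e-04). In both genes the groups stood well apart. Orc6 (log2 fold change 1.97 ± 0.25) and Orc5 (1.65 ± 0.28) rose as well. Orc3 was at 52.5, 51.5 and 51.6 CPM in Asrij low and 66.7, 64.9 and 66.1 CPM in Asrij high, a narrow gap without overlap (0.35 ± 0.15) whose adjusted p of 0.0869 missed the threshold. Orc4 was at 16.7, 21.4 and 24.98 CPM against 33.2, 25.2 and 41.6 CPM (0.67 ± 0.25, adjusted p = 0.0594). Its Asrij high replicate 2 was barely above the highest Asrij low library, and without that replicate Orc4 passed the threshold (0.87, adjusted p = 0.0198, range over alternatives 0.0174 to 0.305). Per kilobase of exon, Orc3 (8.52 ± 0.0913 CPM per kb, SD, n = 3) and Orc2 (8.13 ± 0.778) were the most abundant subunits in Asrij low. In Asrij high Orc2 stood first at 45.4 ± 10.4 CPM per kb, ahead of Orc6 at 16.9 ± 4.25 and Orc3 at 10.8 ± 0.151. Of Orc2 exon bases, 29.8% overlap Nif3l1 on the other strand, and of Orc1 exon bases 10.8% overlap Gm12743. The counts of both genes are therefore less certain.

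The loading factors and their inhibitor rose together. Cdc6, the ATPase that recruits the helicase to the origin complex (chromosome 11, 98907801 to 98923940), was at 24.6, 28.5 and 39.3 CPM in Asrij low and 321, 188 and 347 CPM in Asrij high (log2 fold change 3.21 ± 0.28, adjusted p = 2.04e-04), a 9.28-fold difference. Gmnn, which encodes geminin, the inhibitor of Cdt1, was at 11.2, 13.1 and 16.5 CPM against 104, 58.4 and 98.5 CPM (2.68 ± 0.26, adjusted p = 2.61e-04). Cdt1, the partner that geminin holds, rose from 36.8, 50.8 and 49.96 CPM to 208, 170 and 162 CPM (1.97 ± 0.19). It was 1 of the few members whose lowest Asrij high library was not replicate 2. All 3 genes were higher in each Asrij high library than in any Asrij low library. The ratio of Gmnn to Cdt1 per kilobase lay between 0.551 and 0.707 in Asrij low and between 0.738 and 1.30 in Asrij high, with replicate 2 at the lower end.

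All members of the MCM family rose. Mcm2 to Mcm7 form the ring-shaped helicase, 1 copy of each per ring, and are among the most abundant replication transcripts. Mcm5 (chromosome 8, 75109569 to 75128439) had the largest difference of the ring genes, from 121, 179 and 122 CPM in Asrij low to 684, 493 and 700 CPM in Asrij high (log2 fold change 2.16 ± 0.23, adjusted p = 3.10e-04). Mcm6 had the smallest, from 181, 216 and 142 CPM to 441, 372 and 447 CPM (1.23 ± 0.19, adjusted p = 0.00153). Both genes had their lowest Asrij high value in replicate 2 and kept the groups apart. Mcm2 went from 164, 208 and 153 CPM to 614, 482 and 618 CPM (1.71 ± 0.19, adjusted p = 3.76e-04). Mcm7 went from 269, 323 and 232 CPM to 982, 742 and 941 CPM (1.69 ± 0.20, adjusted p = 4.47e-04). Mcm3 went from 152, 223 and 147 CPM to 588, 411 and 608 CPM (1.62 ± 0.23, adjusted p = 9.85e-04). Mcm4 went from 75.1, 96.6 and 76.5 CPM to 264, 193 and 279 CPM (1.57 ± 0.20, adjusted p = 5.73e-04). In each of these genes Asrij low replicate 2 was the highest Asrij low library. Mcm8, a relative outside the ring that acts in recombination repair, was low in level and uneven in Asrij low, at 3.37, 5.58 and 1.08 CPM, and reached 16.0, 11.6 and 15.7 CPM in Asrij high (2.11 ± 0.51, adjusted p = 0.0098).

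Levels per kilobase of exon allow the ring subunits to be set side by side. Mcm7 was the highest and Mcm4 the lowest of the ring genes in all 6 libraries, at 62.1 ± 10.4 and 23.0 ± 3.36 CPM per kb in Asrij low and 201 ± 29.0 and 68.3 ± 12.9 CPM per kb in Asrij high (SD, n = 3). The highest exceeded the lowest by 2.46 to 2.91 times within Asrij low libraries and by 2.73 to 3.12 times within Asrij high libraries. The place of Mcm5 in the order differed. It stood below Mcm3 in each Asrij low library, and also below Mcm6 in Asrij low replicates 1 and 2, and above both in each Asrij high library. The ratio of Mcm5 to Mcm6 was 0.781 to 1.004 in Asrij low and 1.55 to 1.83 in Asrij high.

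**Figure D3:**
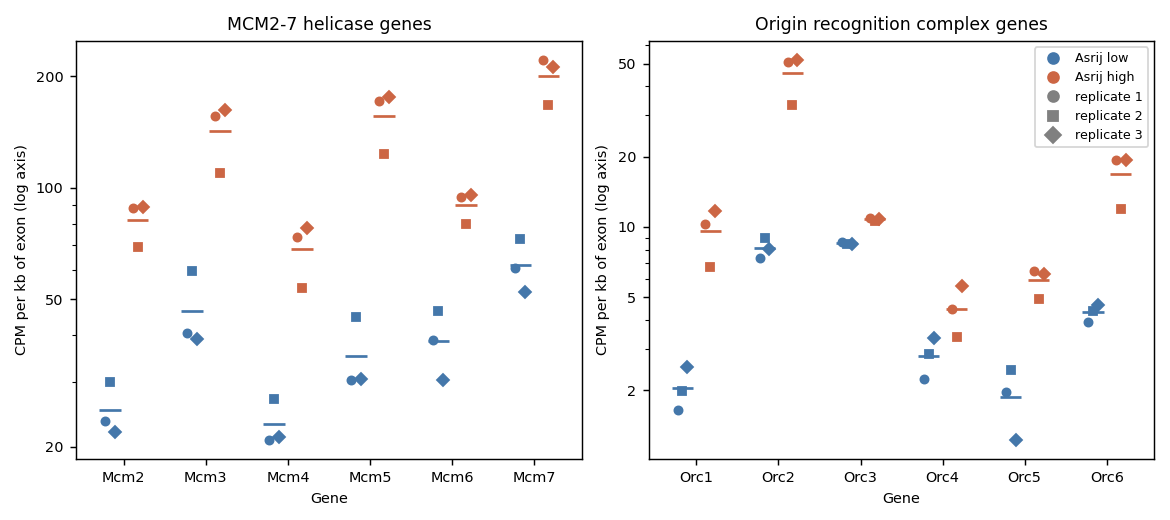
Level per kilobase of exon (log axis) of the ring helicase genes Mcm2 to Mcm7 (left) and of Orc1 to Orc6 (right), with 1 point per library and a bar at the group mean. The ring genes keep Mcm7 on top and Mcm4 at the bottom in both groups, and Orc2 lies near Orc3 in Asrij low and above it in Asrij high.

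Factors that fire origins and start the helicase included the 2 genes with the largest differences. Recql4, a helicase of the RecQ family needed at the onset of replication (chromosome 15, 76703553 to 76710548), was at 6.61, 6.996 and 6.52 CPM in Asrij low and 82.8, 62.4 and 86.2 CPM in Asrij high, the largest fold change of the 56 genes (log2 fold change 3.52 ± 0.21, 11.5-fold, adjusted p = 1.09e-04). Its Asrij low libraries lay within 1 CPM of each other. Mcm10, which binds the activated helicase and is no member of the ring (chromosome 2, 4989714 to 5012791), was at 11.01, 13.1 and 13.9 CPM against 140.4, 96.8 and 146 CPM (3.34 ± 0.22, adjusted p = 1.32e-04). Dbf4, the activating subunit of the firing kinase, was at 10.1, 11.3 and 16.4 CPM in Asrij low and at 72.1, 49.8 and 71.2 CPM in Asrij high (2.36 ± 0.25, adjusted p = 3.28e-04). For its catalytic partner Cdc7 the values were 7.22, 14.2 and 9.92 CPM against 35.5, 34.5 and 42.0 CPM (1.84 ± 0.27, adjusted p = 0.00123). The ratio of Dbf4 to Cdc7 per kilobase overlapped between the groups (0.379 to 0.791 and 0.692 to 0.973). Cdc45, the helicase cofactor, rose by 2.37 ± 0.26 and Ticrr, the Treslin gene that brings Cdc45 to origins, by 2.26 ± 0.18. The 4 GINS genes rose by 1.32 (Gins4) to 2.44 (Gins1). Gins1 and Gins3 were uneven in Asrij low, with 10.5 and 9.97 CPM in replicate 2 and from 3.36 to 4.16 CPM in replicates 1 and 3. Exons of Gins2 (1.95 ± 0.23) overlap Gse1 on the other strand over 67.3% of their bases.

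In the primase and polymerase alpha complex, which lays the primer, the primase subunits had larger fold changes than the polymerase subunits. Prim2 was at 11.5, 19.1 and 21.6 CPM in Asrij low and 89.7, 65.1 and 98.3 CPM in Asrij high (log2 fold change 2.28 ± 0.27, adjusted p = 4.73e-04). Prim1, the catalytic primase subunit, was at 14.8, 26.9 and 19.9 CPM against 84.7, 67.8 and 92.7 CPM (1.99 ± 0.25, adjusted p = 5.54e-04). Both kept the groups apart in every library. Pola1, the catalytic polymerase subunit, rose by 1.80 ± 0.21 and the regulatory subunit Pola2 by 1.30 ± 0.17. Whether subunits differ from each other was not tested.

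All 5 genes of the polymerases that extend the strands rose, by a median of 1.35. Pole, the catalytic subunit of the leading strand polymerase epsilon, was at 43.5, 56.2 and 40.4 CPM in Asrij low and 203, 171 and 191 CPM in Asrij high (log2 fold change 2.01 ± 0.18, adjusted p = 2.18e-04). Its accessory subunit Pole2 was at 8.39, 8.38 and 9.77 CPM against 27.2, 20.5 and 26.4 CPM (1.48 ± 0.23, adjusted p = 0.00141). The groups did not overlap in either gene. For polymerase delta, which mainly copies the lagging strand, Pold1 (catalytic), Pold2 and Pold3 rose by 1.35, 1.33 and 1.22. The ratio of Pole to Pold1 per kilobase was 0.151 to 0.165 in Asrij low and 0.230 to 0.272 in Asrij high.

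Values for the clamp and its loader ran from 0.21 to 2.79 on the log2 scale. Pcna, the sliding clamp, was at 129, 215 and 154 CPM in Asrij low and 692, 485 and 737 CPM in Asrij high (log2 fold change 1.94 ± 0.24, adjusted p = 6.01e-04), and had the highest level per kilobase of the 56 genes in both groups (69.2 ± 18.5 and 265.8 ± 56.001 CPM per kb, SD, n = 3). The pseudogene Pcna-ps2 had 4.69% to 6.57% as many counts as Pcna in the 6 libraries, so reads between the copies may be shared. Rfc4, a small subunit of the loader that opens the clamp, was at 4.41, 3.91 and 4.86 CPM against 33.5, 24.0 and 33.7 CPM (2.79 ± 0.25, adjusted p = 2.21e-04). Rfc2, another small subunit of the same complex, was at 108, 113 and 83.0 CPM in Asrij low and 111, 126 and 114 CPM in Asrij high (0.21 ± 0.17, adjusted p = 0.359). It was the only 1 of the 56 genes whose groups overlapped, and its value was -0.06 with library totals as the scaling. The ratio of Rfc4 to Rfc2 per kilobase was 0.142 to 0.241 in Asrij low and 0.783 to 1.24 in Asrij high. Of Rfc2 exon bases, 15.1% overlap Lat2 on the other strand, and of Rfc4 exon bases 12.7% overlap Eif4a2. The counts of both genes and their ratio are therefore less certain. For Rfc5 the overlap with Wsb2 is 10.7%. Rfc5 (1.44 ± 0.21) and the large subunit Rfc1 (0.98 ± 0.20) rose too. Rfc3 rose by 0.92 ± 0.25 (adjusted p = 0.0168), but lost its call when Asrij low replicate 1 (adjusted p = 0.0572), Asrij high replicate 1 (0.0843) or Asrij high replicate 3 (0.0973) was removed. The same happened with library totals (0.0573) and upper quartile factors (0.0769), and its adjusted p ran from 0.00267 to 0.0973 over alternatives.

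The RPA genes, whose products coat single-stranded DNA, rose by 1.66 to 2.01. Rpa3, the smallest subunit, was at 2.89, 7.52 and 4.05 CPM in Asrij low and 21.1, 14.7 and 22.1 CPM in Asrij high (log2 fold change 2.01 ± 0.38, adjusted p = 0.00339). Rpa2, the middle subunit, was at 29.8, 39.9 and 27.5 CPM against 128, 90.2 and 129.9 CPM (1.84 ± 0.21, adjusted p = 4.45e-04). Rpa1, the large subunit, rose by 1.66 ± 0.25. The highest Asrij low library was replicate 2 and the lowest Asrij high library was replicate 2 in all 3 genes.

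Genes that finish the lagging strand rose as well. Fen1, the flap nuclease, was at 57.4, 91.3 and 73.7 CPM in Asrij low and 434, 274 and 453 CPM in Asrij high (log2 fold change 2.38 ± 0.25, adjusted p = 3.10e-04). The antisense gene Gm10143 covers 78.8% of Fen1 exon bases, so this value is uncertain as that of 1 gene. Dna2, a nuclease and helicase that trims long flaps, was at 17.05, 20.6 and 31.4 CPM against 91.2, 70.3 and 102.6 CPM (1.94 ± 0.26, adjusted p = 7.28e-04). Lig1, the ligase that seals the nicks, rose by 1.89 ± 0.21 and Rnaseh2a, the catalytic subunit of an RNase H, by 1.23 ± 0.18.

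Fork protection genes were all above the median of the 56 genes. Clspn, which encodes claspin, a mediator between the fork and the checkpoint kinase, was at 18.8, 26.8 and 40.7 CPM in Asrij low and 231, 140.5 and 236 CPM in Asrij high (log2 fold change 2.82 ± 0.32, adjusted p = 3.76e-04). Tipin was at 13.8, 15.2 and 11.003 CPM against 82.8, 45.8 and 87.4 CPM (2.43 ± 0.27, adjusted p = 3.98e-04), and its binding partner Timeless rose by 2.26 ± 0.20. For both Clspn and Tipin, Asrij high replicate 2 was well below replicates 1 and 3 but above every Asrij low library. Wdhd1, which ties polymerase alpha to the helicase, rose by 2.15 ± 0.21.

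Among the chaperones that place histones on new DNA, Asf1b was at 9.74, 7.07 and 12.6 CPM in Asrij low and 46.8, 43.5 and 48.2 CPM in Asrij high (log2 fold change 2.24 ± 0.25, adjusted p = 3.64e-04). Chaf1a, the large subunit of chromatin assembly factor 1, was at 85.5, 117 and 85.2 CPM against 442, 305 and 436 CPM (2.04 ± 0.21, adjusted p = 3.09e-04), with 52.5% of its exon bases shared with Ubxn6 on the other strand. Both genes kept the groups far apart. Chaf1b, the middle subunit of the same factor, was the gene nearest to the threshold, at 50.9, 69.3 and 35.0 CPM against 90.0, 75.2 and 82.9 CPM (0.68 ± 0.24, adjusted p = 0.0472). Its call was lost under 9 of 15 alternatives, among them library totals, upper quartile and relative log expression factors. Removing Asrij low replicate 1 or replicate 3 gave an adjusted p of 0.107 or 0.102, removing Asrij high replicate 1 or replicate 3 gave 0.137 or 0.101, and the range over alternatives was 0.00497 to 0.221. Top2a, the topoisomerase that untangles sister DNA and peaks late in the cycle, was at 74.1, 97.0 and 151 CPM in Asrij low and 931, 652 and 1019 CPM in Asrij high (3.01 ± 0.30, adjusted p = 2.61e-04).

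**Figure D4:**
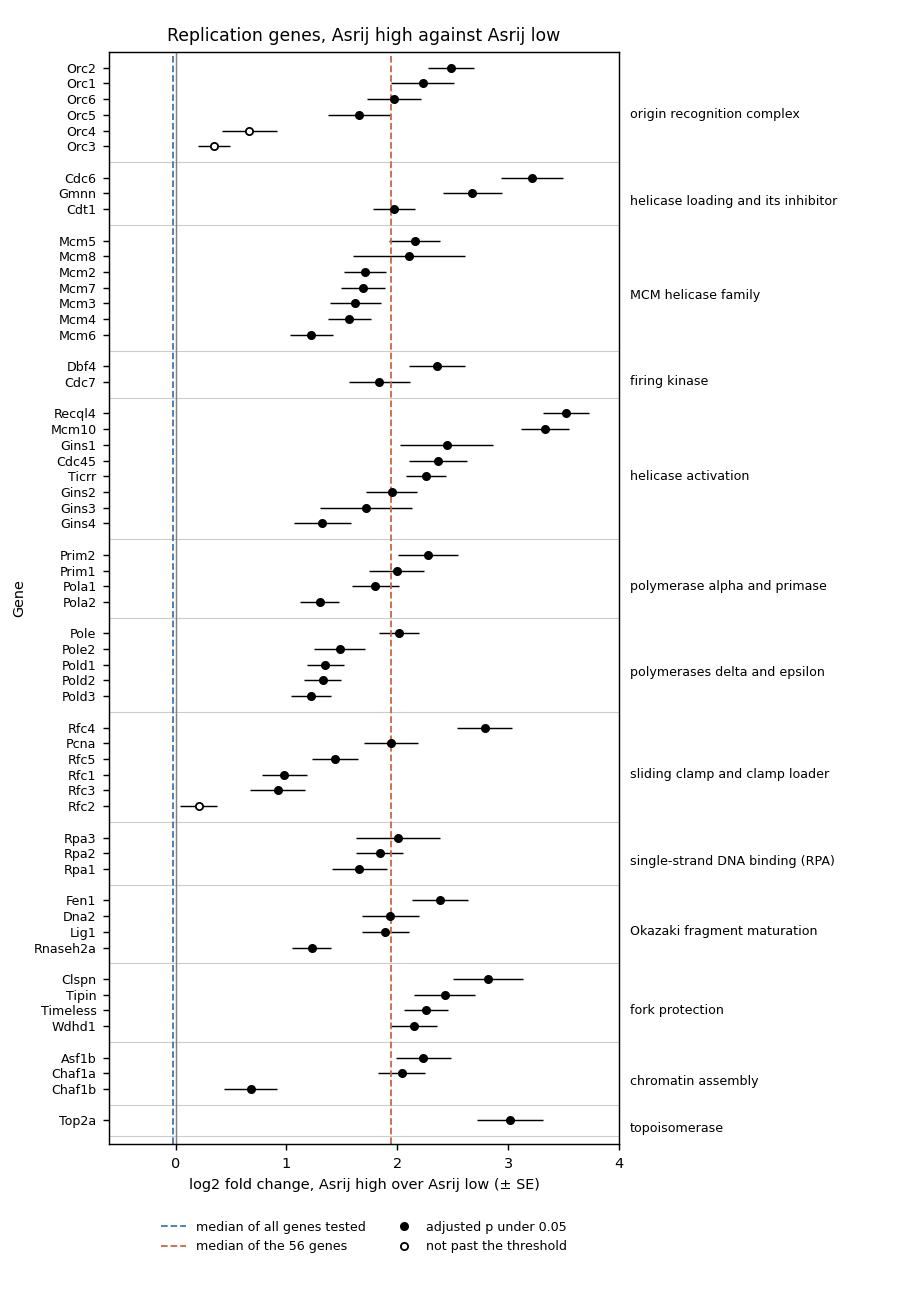
Log2 fold change of each replication gene with its SE (points and bars, filled where adjusted p was under 0.05), grouped by role, with dashed lines at the median of the 56 genes (1.95) and of all tested genes (-0.02). Recql4, Mcm10, Cdc6 and Top2a lie to the right of 3, and Orc3, Orc4 and Rfc2 are the open points.

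Differences between genes of a complex or of related steps can be read within a library, where the scaling cancels. Not all pairs given here are subunits of 1 complex. In the following pairs, chosen after their values were seen and therefore given with no test, the balance shifted between the groups. Orc2 to Orc3 was 0.858 to 1.06 in Asrij low and 3.13 to 4.78 in Asrij high, per kilobase of exon. Orc1 to Orc3 went from 0.191 to 0.296 in Asrij low to values between 0.635 and 1.08. Mcm10 to Mcm2, an activation factor against a ring subunit, was 0.0567 to 0.0825 and then 0.182 to 0.214. Fen1 to Rnaseh2a was 1.73 to 2.84 against 4.58 to 5.82, and Asf1b to Chaf1b was 0.204 to 0.720 against 1.04 to 1.16. Genes on the other strand overlap exon bases of Fen1 (78.8%, Gm10143), Orc2 (29.8%, Nif3l1) and Orc1 (10.8%, Gm12743). The ratios with Fen1, Orc2 and Orc1 are therefore less certain. Of the 10 pairs drawn, Dbf4 to Cdc7 was the pair with overlapping groups.

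**Figure D5:**
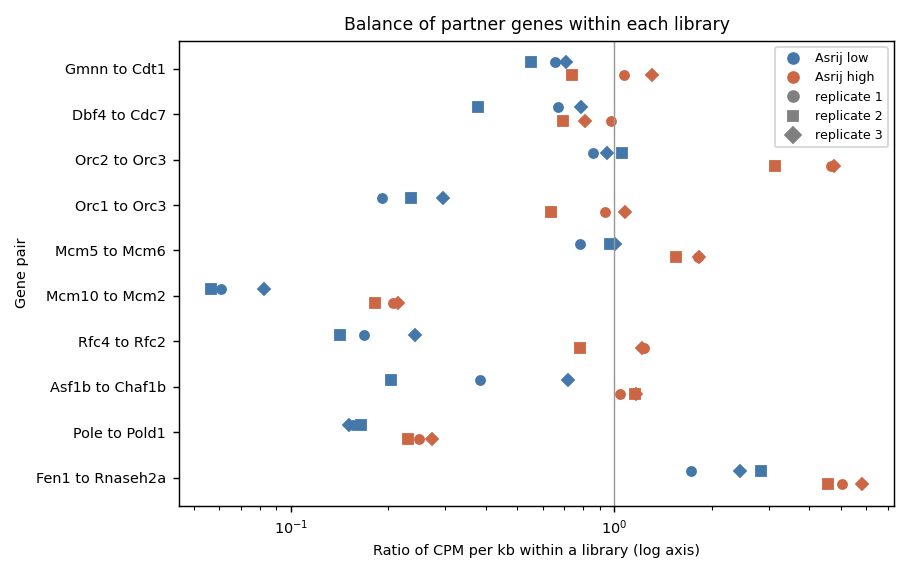
Ratio of the levels per kilobase of exon of 10 gene pairs within each library (points, log axis), with a line at 1. The Asrij high ratios lie to the right of the Asrij low ratios for all pairs but Dbf4 to Cdc7, where 0.692 to 0.973 overlaps 0.379 to 0.791.

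Other genes of replication moved in the same direction in most cases. Over all tested genes, 21.7% were called higher and 17.7% lower, and the median log2 fold change was -0.02. In a list of 38 further factors (polymerase and RNase H subunits, alternative clamp loaders, checkpoint and chromatin factors), 28 rose, 1 fell and 9 did not pass the threshold, with a median log2 fold change of 1.15. Those with the smallest p were Pclaf, a PCNA-binding factor (2.68), Uhrf1, which brings the maintenance methyltransferase to new DNA (2.16), and Tonsl, a reader of new histones (1.88). The gene that fell was Pold4, the smallest subunit of polymerase delta (-1.31, adjusted p = 0.00738), named after its value was seen. Its partners Pold1, Pold2 and Pold3 rose. Genes of deoxynucleotide supply rose in 8 of 11 cases and fell in 2, with a median of 1.93. Dut (2.64), the ribonucleotide reductase gene Rrm1 (2.57) and the thymidine kinase gene Tk1 (2.47) led by p, and the falls were those of Samhd1, which breaks down deoxynucleotides (-0.82), and Rrm2b (-0.71), both named after their values were seen. Of 13 genes of E2F factors and pocket proteins, 9 rose and 1 fell, the pocket protein gene Rbl2 (-0.54, named likewise), with a median of 1.02. E2f4 (1.91), E2f8 (1.4999) and the dimer partner Tfdp1 (1.72) had the smallest p.

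Counts of the replication genes called higher changed little with the scaling, although the scaling moved the table as a whole. Library totals in place of TMM factors lowered the median of all tested genes by 0.27 and turned 4655 higher and 3797 lower calls into 3270 and 4856, while 51 of the 56 genes still rose and 0 fell. Strand matters for part of the set. Of the 56 genes, 19 share exon bases with a gene on the other strand, 8 of them over at least 10% of their exons. How strand was set in the counting is not stated in the labels or notes used here. Of the 37 genes without such overlap, 36 rose, with a median log2 fold change of 1.84.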

How the data were processed

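Poly(A) RNA is named in the molecule field of the labels, whereas the labels' protocols describe ribosomal RNA depletion and a directional library kit. The deposited table holds raw read counts, as whole numbers, with 1 row for each gene symbol. Per the submitters' processing notes, the authors used FastQC, HISAT2, SAMtools and Subread with mm10; which versions, annotation and strand option they used is not given in the sources used here. Columns were tied to samples through the library names in the labels.

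Genes were kept by filterByExpr (a count of 10 and a total of 15 as minima; 21445 of 49997 passed) and tested with edgeR 4.0.16 in R 4.3.3 (TMM factors, robust quasi-likelihood fit, group as the only term, Benjamini-Hochberg threshold 0.05). SE was derived from the quasi-likelihood statistic. The code was tested on simulated data in which few genes were changed. Of those changed 2-fold, 8 of 96 were recovered with the right sign, and of those changed 4-fold 51 of 92. In the same data 8 unchanged genes were called. A gene that missed the threshold may therefore still differ. Alternatives were 3 other scalings, 2 other filters, DESeq2 1.42.0, limma-voom (limma 3.58.1), a replicate block and leaving out libraries. CPM used TMM factors, and CPM per kilobase divided by the union of GENCODE M21 exons (GRCm38), which need not be the annotation behind the counts. Coordinates of genes are those of GENCODE M21.

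The 56 genes, the lists and the tests were chosen with earlier results of these data known. Values per library are given for Mcm2 to Mcm7, for the 2 genes of each role with the largest fold change and for genes that did not pass, with Cdt1 and Chaf1b added after their values were seen, and other lists are named by up to 3 genes with the smallest p. The printed promoters had to hold their match upstream of the start, outside exons, a limit added after seeing the reference. Replicates were compared by chi-square, and each pair differed by more than sampling noise (82.5 to 183 per degree of freedom). A gene with no count in the shallowest library would be below 0.121 CPM (3 counts, counting error only).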

Additional observations from a re-analysis of the deposited data

How the results depend on the processing

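Under the 15 alternatives 51 to 54 of the 56 genes rose and 0 fell, and 51 of the 53 called genes were called in every one. Calls changed in 18 of 840 gene values, with 14 lost (Chaf1b and Rfc3), 4 gained (Orc4) and 0 reversed. The median log2 fold change of the 56 genes was 1.68 with library totals and 1.68 with upper quartile factors, which lower all genes, and 1.80 to 2.14 when 1 library was left out. Dropping Asrij low replicate 3 together with Asrij high replicate 2 left 53 genes higher. Over all tested genes the count of lower calls ran from 2346 (without Asrij high replicate 1) to 3752 when 1 library was left out; the cause was not tested. The labels state no pairing of same-numbered libraries. Correlations of their deviations from the group means were 0.02, 0.04 and 0.30 for replicates 1 to 3. The value of replicate 3 was the highest of any Asrij low library with any Asrij high library, but not every library correlated best with its own number. Deviations from means of 3 libraries cannot settle whether the numbers pair the samples. With the replicate block 53 of the 56 genes rose and 0 fell, and over all genes 4475 were higher and 3613 lower.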
